A study of Mus musculus with 18 samples.

Results

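The genes described here are transcription factors that direct cells into particular lineages and whose levels were compared between a mouse embryonic fibroblast line lacking Nfat5 and a line with intact Nfat5. They are Pax8, Tfap2a, Sox11, Tfcp2l1, Sox9, Sp7, Runx2 and Twist1. Each gene was read from the probe set that names it alone, and where several do, from the one with the highest mean. Such a probe set was found for 7 of the 8 genes, 1 for each, among 19937 genes with a probe set of their own. Runx2 was not analysed here. The genes were chosen by their measured KO and WT levels in earlier results of the same arrays, so the levels in the KO and WT lines are given as a description, with no test.

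Total RNA was read on 18 Affymetrix mouse gene arrays, 3 in each of 6 groups, numbered 1, 2 and 4 in the titles. Mouse embryonic fibroblasts are connective tissue cells grown from embryos, and all of these are of strain 129sv/ev. A line labelled NFAT5 knock-out 5.1 (KO) was kept in hypertonic or isotonic medium. A line labelled NFAT5 wild-type 5.4 (WT) was kept in hypertonic medium with Torin1, in hypertonic medium without it, in isotonic medium with Torin1, and in isotonic medium without it. Torin1 is an inhibitor of the kinase mTOR and was given at 100 nM for 1 h beforehand. The titles give 500 for hypertonic and 300 for isotonic medium without a unit, and how long the cells stayed in hypertonic medium is not given. Each genotype is represented by 1 numbered line, so the deletion and any other difference between the lines cannot be told apart. Isotonic KO array 1 carries KO in its title but the wild-type 5.4 line in its genotype and source labels. It was kept as KO by its title, and the values without it are given for the factors and for the listed genes named. Nothing says that arrays of 1 group are separate cultures, so the p-values reflect the spread between these arrays alone.

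Lineage factors bind DNA in a sequence-specific way and switch on the gene programmes of a tissue. Pax8 is a paired-box factor of the thyroid and the developing kidney. Tfap2a, the AP-2 alpha factor, acts in neural crest and surface ectoderm. Sox11 acts in immature neurons and embryonic mesenchyme, and Sox9 is the central factor of cartilage. Sp7, also called osterix, and Runx2 drive the formation of bone-forming osteoblasts. Twist1 is a basic helix-loop-helix factor of cranial mesenchyme, and Tfcp2l1 is a CP2 family factor of embryonic stem cells and of kidney ducts. Nfat5 is itself a transcription factor, known for switching on osmoprotective genes in hypertonic medium.

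The bases just before the start of transcription are shown for Pax8 and Sox11, both far lower in the KO line, and for Tfcp2l1, which moved in opposite directions in the lines with hypertonic medium. Each run is the 250 bases before the RefSeq start in build GRCm38.p6, read 5′ to 3′ on the gene's strand, at chr2:24475600-24475849 on the minus strand for Pax8, chr12:27342719-27342968 on the minus strand for Sox11 and chr1:118627695-118627944 on the plus strand for Tfcp2l1. Capitals mark CCAAT and TATAAA, searched on both strands.
Pax8: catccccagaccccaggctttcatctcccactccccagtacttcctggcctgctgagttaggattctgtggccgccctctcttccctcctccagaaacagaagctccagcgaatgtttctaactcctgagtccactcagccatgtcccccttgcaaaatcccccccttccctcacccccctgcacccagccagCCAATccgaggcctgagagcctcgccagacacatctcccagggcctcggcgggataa
Sox11: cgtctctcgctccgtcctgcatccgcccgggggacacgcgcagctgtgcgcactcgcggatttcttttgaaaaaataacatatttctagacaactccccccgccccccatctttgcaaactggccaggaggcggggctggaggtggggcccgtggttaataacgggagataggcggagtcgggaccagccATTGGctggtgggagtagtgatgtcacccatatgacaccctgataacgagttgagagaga
Tfcp2l1: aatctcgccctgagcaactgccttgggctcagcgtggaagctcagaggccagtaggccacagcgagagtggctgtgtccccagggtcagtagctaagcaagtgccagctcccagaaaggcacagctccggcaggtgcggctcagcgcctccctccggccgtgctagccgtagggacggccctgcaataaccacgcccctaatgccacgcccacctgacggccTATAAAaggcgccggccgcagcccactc
The CCAAT motif lies 57 to 53 bases before the start in Pax8 and 60 to 56 bases before it in Sox11, where it is on the opposite strand. The TATAAA motif lies 28 to 23 bases before the start in Tfcp2l1. Of 32851 windows of this length, 33.85% hold CCAAT and 12.37% hold TATAAA. None of these 3 windows holds GGAAA, the core motif of the NFAT family, which 55.57% of windows hold. Windows of other factors do: Twist1 with 4 matches, Tfap2a with 1 and 2 in its 2 windows, and Runx2 with 2. The longer TonE consensus of NFAT5, which contains that core, is in none of the 7 windows of the 6 genes in the promoter table and in 4.31% of all windows. The table has windows for Pax8, Tfap2a, Sox11, Tfcp2l1, Twist1 and Runx2. The Pax8 window has 6 CpG sites, the Sox11 window 17 and the Tfcp2l1 window 16, against a median of 6 over all windows. These matches describe letters in a window and were not tested against any reading.

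Levels are on the log2 scale, where 1 unit is 2-fold, and the median of an array lay between 6.96 and 7.13. The Nfat5 probe set did not separate the lines: it ranged from 9.72 to 10.22 on KO arrays and from 9.94 to 10.77 on WT arrays. Where the probes lie relative to the deleted part is not known here. The 16 fibroblast markers averaged 11.45 to 11.99 on KO arrays and 10.36 to 10.72 on WT arrays, with the intermediate filament gene Vim highest in both lines. On WT arrays 15 of the 16 exceeded the filter level of 5.86, the 30th percentile of all values, and the exception was Lum, with a mean of 4.36. Adipocyte markers averaged 7.16 to 7.93 on KO arrays and 6.13 to 6.40 on WT arrays, and neural markers 6.42 to 6.77 on KO arrays and 6.56 to 7.33 on WT arrays. The means of muscle, endothelial and blood cell markers lay between 6.14 and 6.79 in both lines. The ranges of the fibroblast and adipocyte markers did not overlap between the lines, and their part in the line differences below was not tested. In bulk RNA, fewer cells of a type and less RNA per cell cannot be told apart.

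**Figure D1:**
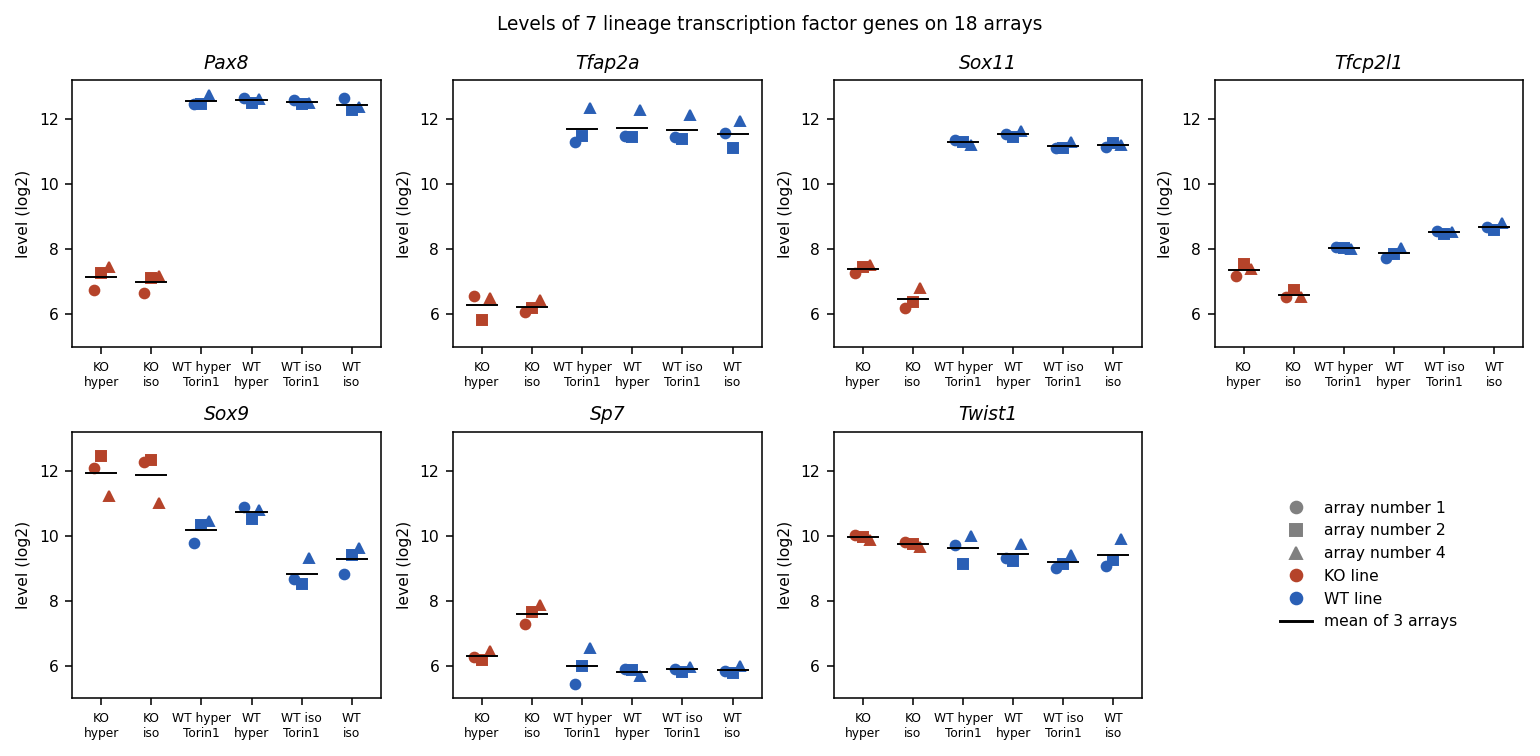
Level (log2) of each of 7 genes on every array, by group, with the marker shape giving the array number and a bar for the mean of 3 arrays. Pax8, Tfap2a and Sox11 lie far lower on all KO arrays, below 7.53, and above 11.1 on all WT arrays.

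Pax8, Tfap2a and Sox11 were high in every WT group and near or below the array median in the KO line. Pax8 read 6.76, 7.28 and 7.45 on hypertonic KO arrays 1, 2 and 4, and 6.66, 7.12 and 7.18 on isotonic KO arrays. WT arrays in hypertonic medium read 12.48, 12.48 and 12.74 with Torin1 and 12.64, 12.51 and 12.63 without it. WT arrays in isotonic medium read 12.60, 12.47 and 12.51 with Torin1 and 12.65, 12.30 and 12.37 without it. The highest KO array was thus well below the lowest WT array, and the 4 WT groups overlapped one another. The KO minus WT difference was −5.43 ± 0.17 in hypertonic medium and −5.45 ± 0.17 in isotonic medium (log2 ± standard error, n = 3 arrays per group), or 43.1-fold and 43.8-fold lower in KO.

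Tfap2a read 6.56, 5.82 and 6.51 on hypertonic KO arrays and 6.08, 6.20 and 6.45 on isotonic KO arrays. WT arrays in hypertonic medium read 11.30, 11.49 and 12.33 with Torin1 and 11.48, 11.47 and 12.28 without it. WT arrays in isotonic medium read 11.47, 11.40 and 12.13 with Torin1 and 11.59, 11.10 and 11.96 without it. Array 4 was the highest of the 3 in every WT group. The KO minus WT difference was −5.44 ± 0.31 in hypertonic and −5.31 ± 0.31 in isotonic medium.

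Sox11 read 7.26, 7.45 and 7.52 on hypertonic KO arrays and 6.20, 6.38 and 6.83 on isotonic KO arrays. In hypertonic medium, the WT arrays read 11.35, 11.30 and 11.23 with Torin1 and 11.55, 11.46 and 11.63 without it. In isotonic medium, the WT arrays read 11.12, 11.12 and 11.29 with Torin1 and 11.15, 11.28 and 11.20 without it. The hypertonic KO arrays all lay above the isotonic KO arrays. The line difference was −4.14 ± 0.13 in hypertonic and −4.74 ± 0.13 in isotonic medium. By size of the isotonic line difference, Pax8 stood at rank 7, Tfap2a at rank 9 and Sox11 at rank 28 of 15711 genes.

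Tfcp2l1 was also lower in KO, by less. It read 7.20, 7.56 and 7.38 on hypertonic KO arrays and 6.52, 6.75 and 6.53 on isotonic KO arrays. WT arrays in hypertonic medium read 8.08, 8.06 and 7.999 with Torin1 and 7.74, 7.87 and 8.04 without it. WT arrays in isotonic medium read 8.57, 8.47 and 8.52 with Torin1 and 8.68, 8.60 and 8.80 without it. Hypertonic arrays were the higher ones in KO and the lower ones in WT, so the line difference was −0.50 ± 0.11 in hypertonic and −2.09 ± 0.11 in isotonic medium.

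Sox9 ran the other way and was higher in KO in each medium. It read 12.09, 12.45 and 11.22 on hypertonic KO arrays and 12.27, 12.33 and 11.02 on isotonic KO arrays, with array 4 about 1 unit below the others in both. In hypertonic medium, the WT arrays read 9.78, 10.32 and 10.46 with Torin1 and 10.89, 10.52 and 10.79 without it. In isotonic medium, the WT arrays read 8.68, 8.51 and 9.31 with Torin1 and 8.83, 9.40 and 9.62 without it. The line difference was 1.19 ± 0.36 in hypertonic and 2.59 ± 0.36 in isotonic medium, or 2.28-fold and 6.03-fold higher in KO. Taken within array numbers 1, 2 and 4, it was 1.21, 1.94 and 0.43 in hypertonic medium and 3.45, 2.93 and 1.40 in isotonic medium.

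Sp7 was dim in most groups and stood out in isotonic KO cells. It read 6.26, 6.18 and 6.47 on hypertonic KO arrays and 7.27, 7.65 and 7.87 on isotonic KO arrays. WT arrays in hypertonic medium read 5.45, 6.002 and 6.55 with Torin1 and 5.91, 5.89 and 5.68 without it. WT arrays in isotonic medium read 5.91, 5.82 and 5.98 with Torin1 and 5.85, 5.78 and 5.99 without it. The line difference was 0.48 ± 0.21 in hypertonic and 1.73 ± 0.21 in isotonic medium.

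Twist1 differed least of the 7 between the lines in isotonic medium, and by about as much as Tfcp2l1 and Sp7 in hypertonic medium. It read 10.02, 9.96 and 9.87 on hypertonic KO arrays and 9.82, 9.74 and 9.66 on isotonic KO arrays. In hypertonic medium, the WT arrays read 9.71, 9.14 and 9.98 with Torin1 and 9.32, 9.23 and 9.74 without it. In isotonic medium, the WT arrays read 9.02, 9.14 and 9.42 with Torin1 and 9.07, 9.25 and 9.91 without it. The difference was 0.52 ± 0.22 in hypertonic medium, where the arrays did not overlap, and 0.33 ± 0.22 in isotonic medium, where isotonic WT array 4 lay above all 3 isotonic KO arrays. The isotonic value depended on single WT arrays and was 0.58 with array 4 of that group left out and 0.16 with its array 1 left out. Twist1 stood at rank 3942 of 15711 by the size of the isotonic difference and at rank 3799 by the hypertonic one, where Tfcp2l1 stood at rank 3982 and Sp7 at rank 4235. Without isotonic KO array 1, the isotonic differences were −5.29 for Pax8, −5.22 for Tfap2a, −4.60 for Sox11, −2.05 for Tfcp2l1, 2.39 for Sox9, 1.89 for Sp7 and 0.29 for Twist1.

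Across the 18 arrays Pax8 followed Tfap2a with a Pearson r of 0.99 and Sox11 with an r of 0.991, and Sox9 ran opposite to Pax8 with an r of −0.81. These correlations describe 18 arrays that mostly separate by line. The genes most like each factor were Ptges, Rbm46 and Grem1 for Pax8 (r from 0.991 to 0.994), Ptges, Pax8 and Agrn for Tfap2a (0.99 to 0.993), and Rbm46, Pax8 and Ptges for Sox11 (0.987 to 0.995). They were Lipo3, Nuak2 and Jazf1 for Tfcp2l1 (0.946 to 0.955), Ddit4l, Deptor and Sc5d for Sox9 (0.929 to 0.947), Hspa12b, Unc93b1 and Zeb2os for Sp7 (0.938 to 0.961), and Efna5, Id3 and Cyb5d2 for Twist1 (0.871 to 0.893).

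The factors were chosen by KO and WT levels on these same arrays, so p-values of the hypertonic effects below are not independent of it. In KO cells, hypertonic medium changed 3 of the 7. Calls here are genes with a limma adjusted p under 0.05 among 15711 tested, all 7 included. Of all genes, 30.1% were called in this comparison, 12.9% higher and 17.2% lower, so the share among the factors is not a result about them. Sox11 rose by 0.94 ± 0.13 (adjusted p = 6.12e-05) and Tfcp2l1 rose by 0.78 ± 0.11 (adjusted p = 5.99e-05). Sp7 fell by 1.30 ± 0.21, or 2.46-fold (adjusted p = 0.000223). For each of the 3, the hypertonic and isotonic KO arrays did not overlap. Without isotonic KO array 1 the changes were 0.81 for Sox11, 0.74 for Tfcp2l1 and −1.46 for Sp7, all still called. The differences were 0.18 ± 0.17 for Pax8, 0.05 ± 0.31 for Tfap2a, 0.05 ± 0.36 for Sox9 and 0.21 ± 0.22 for Twist1, none called. Gene-level medians were lower on hypertonic KO arrays (7.53 to 7.57) than on isotonic KO arrays (7.66 to 7.74). Centring the arrays moved the median change of all genes in KO to 0.18 from 0.02, and the share of calls that were higher to 69.4% from 42.9%. The 3 calls held under centring.

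In WT cells, hypertonic medium changed 2 of the 7, against 8.24% of all genes (3.94% higher and 4.3% lower). Sox9 rose by 1.45 ± 0.36, or 2.73-fold (adjusted p = 0.0229), and all 3 hypertonic arrays lay above all 3 isotonic ones. Tfcp2l1 fell by 0.81 ± 0.11 (adjusted p = 0.000607), lower under each array number. The Sox9 call was lost when isotonic array 1 (1.22, adjusted p = 0.0972), isotonic array 2 (1.51, adjusted p = 0.0522), hypertonic array 1 (1.37, adjusted p = 0.0944) or hypertonic array 2 (1.55, adjusted p = 0.0506) of the WT line was left out. Sox11 differed by 0.34 ± 0.13 (adjusted p = 0.119), and was called only without isotonic KO array 4 (adjusted p = 0.0385). The other 4 differed by −0.05 to 0.19 and were not called.

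In WT cells with Torin1, hypertonic medium changed 1 of the 7, against 3.37% of all genes (1.65% higher and 1.72% lower). Tfcp2l1 fell by 0.48 ± 0.11 (adjusted p = 0.0218). Sox9 differed by 1.35 ± 0.36 (adjusted p = 0.0528, 3 of 3 array numbers higher), and with the replicate number as a block its adjusted p was 0.0365, which is a call. The call of Tfcp2l1 was lost without isotonic Torin1 array 1, 2 or 4 (adjusted p 0.0883, 0.0532 and 0.0642) and without hypertonic Torin1 array 2 or 4 (0.0821 and 0.0533). The remaining 5 genes differed by 0.04 to 0.42.

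**Figure D2:**
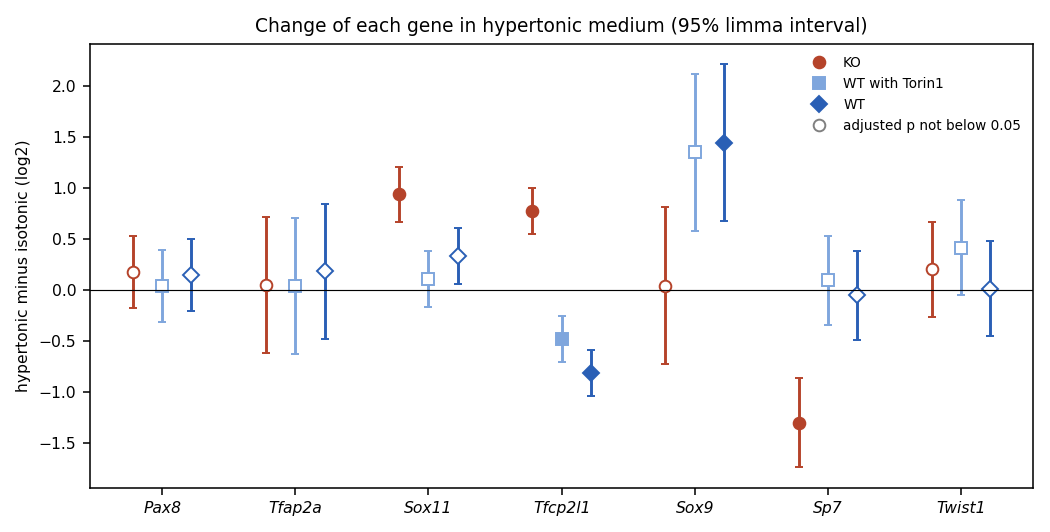
Hypertonic minus isotonic difference (log2) of each gene in KO cells, WT cells with Torin1 and WT cells, with 95% intervals from limma. Filled markers passed the adjusted p of 0.05. Tfcp2l1 is above 0 in KO and below 0 in both WT series.

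Torin1 itself changed none of the 7 in isotonic WT cells, where no gene of all was called (0%), nor in hypertonic WT cells, where 0.115% of all genes were called, 0.0573% in each direction. No factor reached an unadjusted p below 0.05 in limma either. The smallest were 0.129 for Tfcp2l1 in isotonic and 0.0625 for Sox11 in hypertonic medium. Sox9 differed by −0.54 (95% interval −1.31 to 0.23) in hypertonic and −0.45 (−1.22 to 0.32) in isotonic medium, so a change of over 2-fold is within both intervals. The change of the hypertonic response with Torin1 was called for no factor and for no gene of all (0%), and had an unadjusted p below 0.05 only for Tfcp2l1, at 0.33 ± 0.15.

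The hypertonic response differed between the KO and WT lines for 3 of the 7 factors, against 9.5% of all genes (3.35% higher and 6.15% lower). This difference of responses is also the difference between the hypertonic and the isotonic line difference, and uses the same arrays. Since the factors were chosen by their line differences, its p-values are not independent of that choice. Tfcp2l1 responded in opposite directions, with a difference of 1.59 ± 0.15 (adjusted p = 5.67e-05). Sp7 differed by −1.25 ± 0.29 (adjusted p = 0.0145), falling in KO by 1.30 while its WT difference was −0.05. Sox11 differed by 0.60 ± 0.18 (adjusted p = 0.048), and that call held in 8 of 28 alternative settings. Without isotonic KO array 1 the differences were 1.55 for Tfcp2l1 and −1.41 for Sp7, both called, and 0.47 for Sox11 (adjusted p = 0.121), not called. Sox9 differed by −1.40 ± 0.51 (adjusted p = 0.107) and was called without isotonic KO array 4 (−1.83, adjusted p = 0.0218). Differences were 0.03 ± 0.23 for Pax8, −0.13 ± 0.44 for Tfap2a and 0.19 ± 0.31 for Twist1.

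Relatives of the factors were set beside them from lists chosen with earlier results of these arrays known. Of 231 tested genes in 20 lists, 68 were called between the lines in hypertonic medium (47 higher and 21 lower in KO) and 56 in isotonic medium (37 higher and 19 lower), against 31.9% of all genes in hypertonic medium (13.8% higher and 18% lower) and 14.6% in isotonic medium (7.78% higher and 6.84% lower). Among 14 other SOX factors, 1 was higher and 1 lower in KO in hypertonic medium, and 1 higher and 2 lower in isotonic medium. Sox21 was lower in both, by a log2 difference of −1.01 ± 0.25 (adjusted p = 0.00663) and −1.23 ± 0.25 (adjusted p = 0.00311). Sox4, the highest of these, was higher in KO by 1.02 ± 0.18 in hypertonic medium (adjusted p = 0.000542) and differed by 0.37 ± 0.18 in isotonic medium (adjusted p = 0.225). Among 8 other PAX factors, 2 were higher and 1 lower in KO in hypertonic medium, and 1 was lower in isotonic medium. Pax9, a factor of the pharyngeal pouches and skeleton, was higher in hypertonic medium by 1.03 ± 0.36 (adjusted p = 0.0416), and Pax4, a factor of the endocrine pancreas, by 0.28 ± 0.09 (adjusted p = 0.0266), singled out after its value was seen. The Pax9 call was lost without any 1 hypertonic KO array, hypertonic WT array 1 or 2, or array 1 of isotonic WT with Torin1 (adjusted p from 0.0511 to 0.132). The Pax4 call was lost without hypertonic KO array 1 or 4 or hypertonic WT array 2 or 4 (adjusted p from 0.0707 to 0.0952). Pax2, which acts beside Pax8 in the developing kidney, was lower in KO by −3.43 ± 0.18 in hypertonic and −2.51 ± 0.18 in isotonic medium. Of the RUNX list, Runx1, Runx3 and the shared partner Cbfb were tested and none was called in either medium by limma, nor had an unadjusted p under 0.05, with differences from −0.13 to 0.43. Neither of the 2 AP-2 relatives tested, Tfap2c and Tfap2e, was called, nor had an unadjusted p under 0.05 in limma. Among 14 TWIST relatives and partners 1 was called in each medium. Twist2 was higher in KO in isotonic medium by 1.28 ± 0.25 (adjusted p = 0.00184) and differed by −0.11 ± 0.25 in hypertonic medium (adjusted p = 0.764). Among 6 SP factors, Sp4 was lower in KO by −0.57 in hypertonic and −0.53 in isotonic medium, and Sp3 was higher in hypertonic medium by 0.47 ± 0.08 (adjusted p = 0.000573). Of 4 CP2 and grainyhead relatives of Tfcp2l1, Tfcp2 was lower in KO in hypertonic medium by −0.64 ± 0.10 (adjusted p = 0.000188) and differed by 0.10 ± 0.10 in isotonic medium (adjusted p = 0.605).

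Genes of the tissues in which these factors act differed in both directions. The share called in hypertonic and isotonic medium was 27.8% and 22.2% of chondrocyte genes and 41.2% and 23.5% of osteoblast genes. It was 44.4% and 33.3% of kidney and thyroid genes and 40.0% and 46.7% of neural crest genes. Of all genes, 31.9% and 14.6% were called. The lists were chosen with earlier results known, so these shares are not read as a result about the tissues. Of 18 chondrocyte genes 4 were higher and 1 lower in KO in hypertonic medium, and 3 higher and 1 lower in isotonic medium. Fmod, the matrix proteoglycan fibromodulin, was higher by 5.24 ± 0.22 and 5.25 ± 0.22, and Epyc, encoding epiphycan, by 3.41 ± 0.51 and 3.62 ± 0.51. Col11a1, a cartilage collagen gene, was lower by −1.74 ± 0.22 and −2.38 ± 0.22. Col2a1 and Acan, on the same list, were called in neither medium. Col2a1 differed by −0.01 ± 0.12 in hypertonic and −0.32 ± 0.12 in isotonic medium, and Acan by −0.14 ± 0.10 and 0.06 ± 0.10. Of 17 osteoblast genes 2 were higher and 5 lower in hypertonic medium, and 2 higher and 2 lower in isotonic medium. Phex, a gene of osteoblasts and osteocytes, was higher by 2.16 ± 0.65 and 3.45 ± 0.65, but in hypertonic medium its call was lost without hypertonic KO array 1 (1.61, adjusted p = 0.104), hypertonic KO array 2 (1.88, adjusted p = 0.0795) or hypertonic WT array 4 (2.03, adjusted p = 0.058). Bmp2, a bone morphogenetic protein, was lower by −0.79 ± 0.19 and −2.03 ± 0.19. Of 18 kidney and thyroid genes 7 were higher and 1 lower in hypertonic medium, and 5 higher and 1 lower in isotonic medium. Gata3 was higher by 1.77 ± 0.31 and 1.88 ± 0.31. Of 15 neural crest genes 3 were higher and 3 lower in hypertonic medium, and 3 higher and 4 lower in isotonic medium. Cdh6, a cadherin of neural crest and kidney, was lower by −3.08 ± 0.34 and −2.44 ± 0.34.

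The median line difference was 0.20 in hypertonic and 0.08 in isotonic medium for chondrocyte genes, and 0.06 and 0.03 for osteoblast genes, against 0.04 and 0.02 for all genes. It was 0.19 and 0.09 for kidney and thyroid genes, and 0.12 and −0.03 for neural crest genes. Of 22 epithelial genes, 3 were higher and 1 lower in hypertonic medium, and 3 higher and none lower in isotonic medium. That is 18.2% and 13.6%, against 31.9% and 14.6% of all genes called. Cdh1, the epithelial cadherin, was higher in KO by 0.79 ± 0.22 and 1.72 ± 0.22, but its hypertonic call was lost without hypertonic KO array 2 (0.69, adjusted p = 0.0595). Of 9 pluripotency genes, among which Tfcp2l1 acts in stem cells, 1 was higher in hypertonic medium, and 1 higher and 1 lower in isotonic medium.

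Genes of other mesenchymal cells were also compared between the lines. The counts below stand against 31.9% of all genes called in hypertonic and 14.6% in isotonic medium. Of 23 mesenchymal factors, 4 were higher and 4 lower in KO in hypertonic medium, and 3 higher and 5 lower in isotonic medium. That is 34.8% in each medium, and it is not read as a result about the list. Osr2, a factor of embryonic mesenchyme, was higher in KO by 4.88 ± 0.28 in hypertonic and 4.87 ± 0.28 in isotonic medium, and Foxf1 was lower by −2.58 ± 0.18 and −1.77 ± 0.18. Of 8 adipocyte markers 6 were higher in hypertonic medium and 5 in isotonic medium, none lower, with Pparg, the main factor of fat cells, higher by 4.01 ± 0.32 and 3.99 ± 0.32. The median of the adipocyte markers was 1.44 in hypertonic and 1.59 in isotonic medium. The fibroblast markers had 7 of 16 higher in hypertonic and 6 of 16 in isotonic medium, none lower, with Thy1 higher by 4.01 ± 0.17 and 3.88 ± 0.17. Of 10 neural markers, 1 was higher and 1 lower in hypertonic medium, and 1 was lower in isotonic medium. Elavl3, an RNA-binding protein of neurons singled out after its value was seen, was higher in hypertonic medium by 0.67 ± 0.14 (adjusted p = 0.0019), and Stmn2 was lower by −4.74 ± 1.15 and −5.08 ± 1.15, with an SD of 1.99 and 2.01 among the WT arrays of each medium.

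Without isotonic KO array 1, 45 of the 56 listed genes called between the lines in isotonic medium remained called, and none reversed. The 17 named above as called in that medium were among them. The differences without it were −1.30 for Sox21, −2.59 for Pax2, −0.57 for Sp4 and 1.15 for Twist2. They were 5.36 for Fmod, 3.17 for Epyc, −2.49 for Col11a1, 2.78 for Phex and −2.12 for Bmp2. For Gata3 the value was 2.01, for Cdh6 −2.55, for Cdh1 1.497 and for Osr2 4.75, and it was −1.62 for Foxf1, 3.76 for Pparg, 3.96 for Thy1 and −5.31 for Stmn2.

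**Figure D3:**
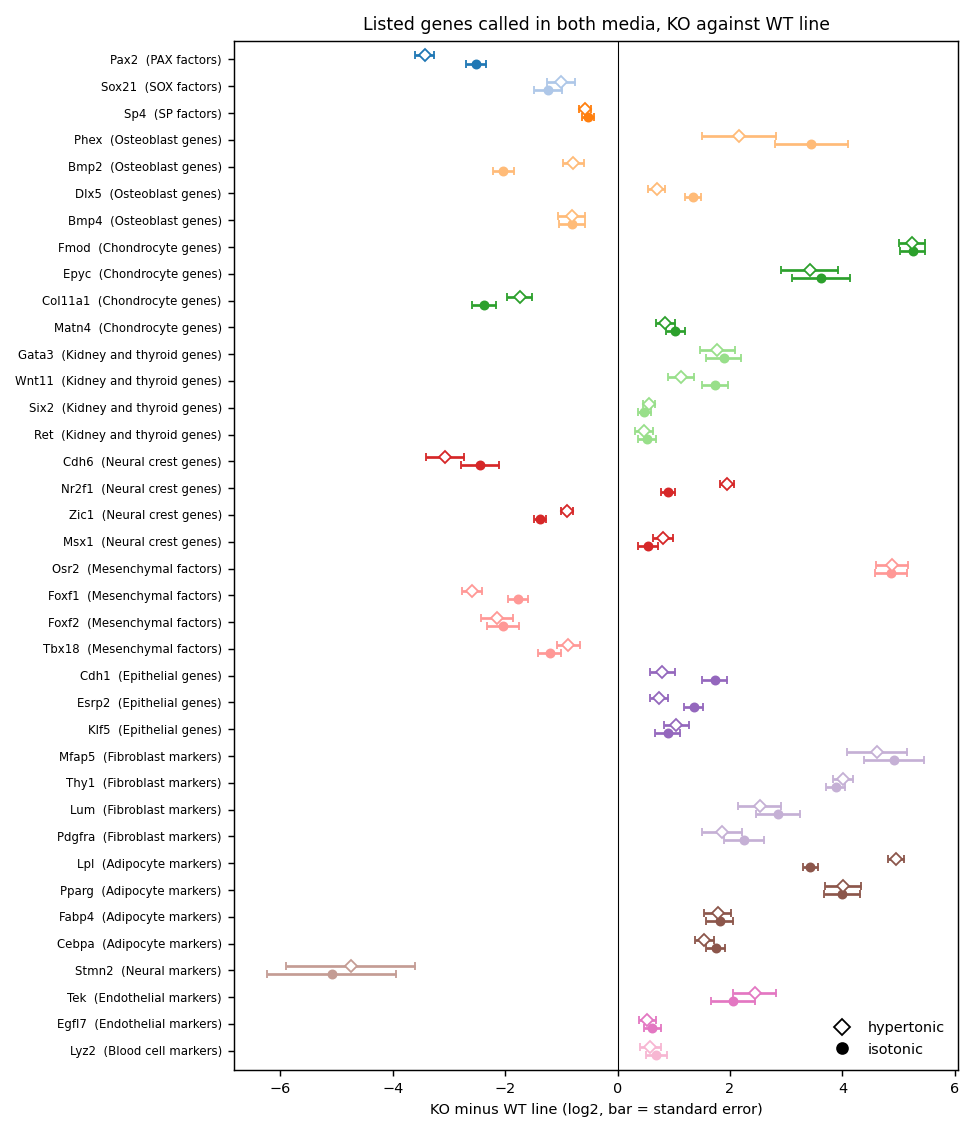
KO minus WT difference (log2, bars are standard errors) of 38 listed genes, at most 4 a list by size, out of 43 called in the same direction in both media, open diamonds for hypertonic and filled circles for isotonic medium. Of the 43, 31 are higher and 12 lower in KO, 26 and 12 of them drawn, and lists such as osteoblast and chondrocyte genes hold both.

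The tissue lists of Sp7 and Sox9 were also read for the hypertonic effect. In KO cells, where Sp7 fell, 2 of 17 osteoblast genes fell and none rose, against 17.2% lower and 12.9% higher of all genes: Dlx5, a bone homeobox factor, by 0.66 ± 0.15 (adjusted p = 0.00302) and Pth1r, the parathyroid hormone receptor, by 0.61 ± 0.15 (adjusted p = 0.00652). Without isotonic KO array 1 the changes were −0.72 and −0.50, both called. In WT cells, where Sox9 rose, none of 18 chondrocyte genes was called by limma, against 8.24% of all genes, and 3 had an unadjusted p under 0.05. Neither count is read as a result about these lists. Among relatives, Twist2 rose in WT cells by 1.28 ± 0.25 (adjusted p = 0.00599) and in WT cells with Torin1 by 1.03 ± 0.25 (adjusted p = 0.0327), and differed by −0.11 ± 0.25 in KO cells (adjusted p = 0.793). Its call with Torin1 was lost when any of 5 single arrays was left out, with an adjusted p from 0.051 to 0.161. Its response differed between the lines by −1.40 ± 0.35 (adjusted p = 0.0209), which was lost without isotonic WT array 2 (adjusted p = 0.051) or isotonic KO array 1 (adjusted p = 0.0579). Twist2 and the relatives named next were singled out after their values were seen. Pax2 rose in WT cells by 0.85 ± 0.18 (adjusted p = 0.00842, and 0.0525 without hypertonic WT array 1) and differed by −0.07 ± 0.18 in KO cells. Tfcp2 fell in KO cells by 0.79 ± 0.10 (adjusted p = 3.96e-05, and by 0.71 without isotonic KO array 1), where its relative Tfcp2l1 rose. Ubp1, another relative, rose there by 0.39 ± 0.07 (adjusted p = 0.000626, and by 0.39 without that array). Of the SOX relatives, Sox4 rose in KO cells by 0.96 ± 0.18 (adjusted p = 0.000893) and Sox12 fell by 0.72 ± 0.18 (adjusted p = 0.0058). Without that array these changes were 1.15 and −0.77, both called.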

How the data were processed

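The 18 arrays were read as deposited log2 values, which the authors made with RMA in R 2.11.1, per the submitters' processing notes. The genome build behind the array's annotation is not known here. The 34760 probe sets were used with no further normalization: 21640 name 1 gene, 1321 several and 11799 none. Genes were kept where the highest group mean passed the 30th percentile of all values (5.86 log2), 15711 in all. RMA gives no detection call, and 3 arrays per group limit the precision. limma 3.58.1 in R 4.3.3 fitted a mean per group (12 residual degrees of freedom, 3.29 prior), with Benjamini-Hochberg adjustment within each contrast over all genes tested.

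The factors and lists were chosen with earlier results of these data known. Named genes are all factors, up to 4 genes of each list called in the same direction between the lines in both media by the largest mean difference, the 3 highest relatives of each family, the 3 genes most correlated with each factor, and some singled out later, as said. The text leaves out some of these.

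The titles' numbers were tested as pairs. With group means taken out, same-numbered arrays of 2 groups had correlations over genes of 0.094 to 0.847 in 45 pairs, and differently numbered ones of −0.782 to 0.624 in 90. The lowest same-numbered correlation, 0.094, was between hypertonic KO array 1 and isotonic WT array 1. What the numbers stand for is not stated, so the fit has no block and a fit with the number as a block was run beside it. With the block, 15% of all genes were called for the hypertonic effect in WT, against 8.24% without it. Between the lines in isotonic medium, 20.9% were called with the block and 14.6% without it. Alternatives were other filters, the mean of probe sets, quantile normalization, centring, another prior, only the groups compared, isotonic KO array 1 as WT, and each array left out. Simulated data for the hypertonic effect in WT, over 15711 genes, gave back 80 of 100 genes moved by 1 log2 and 97 of 100 moved by 2, with 12 of 189 calls false. The simulated noise was independent between arrays, while the real arrays correlated by number, so these rates hold for that setting alone. Promoter windows and their GRCm38.p6 coordinates are from RefSeq. Gene symbols were matched by Entrez ID for 99.6% of single-gene probe sets.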

Additional observations from a re-analysis of the deposited data

Results flagged for a closer look

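In 3 factors the hypertonic response differed between the KO and WT lines by limma's test of the difference itself. That difference equals the hypertonic minus the isotonic line difference, by which the factors were chosen, so the p-values describe these arrays and are not independent evidence. For Tfcp2l1 the response in KO minus that in WT was 1.59 ± 0.15 (adjusted p = 5.67e-05), and the gene was higher in hypertonic medium under 3 of 3 array numbers in KO and lower under 3 of 3 in WT. For Sp7 it was −1.25 ± 0.29 (adjusted p = 0.0145), lower under 3 of 3 numbers in KO. The WT changes of Sp7 under numbers 1, 2 and 4 were 0.055, 0.104 and −0.305, and the WT difference was −0.05. Its WT means, 5.87 in isotonic and 5.82 in hypertonic medium, lay near the filter level. The signs of these WT changes are therefore not read as a response. For Sox11 the response in KO minus that in WT was 0.60 ± 0.18 (adjusted p = 0.048), higher under 3 of 3 numbers in both lines. Over the 28 alternatives the adjusted p ranged from 3.28e-05 to 0.437 for Tfcp2l1, from 0.00176 to 0.24 for Sp7 and from 0.00438 to 0.872 for Sox11.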

How the results depend on the processing

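Over all single-gene results and alternatives, 6512 of 6893 values were the same, 340 lost a call, 33 gained one, 7 moved and 1 reversed. For tested values, the same means the same side of the threshold, and direction was compared only where the main result was called. For the factors' line differences, it means a shift below the larger SD of the 2 groups with the sign kept. With isotonic KO array 1 counted as WT, the called factors were 1 for the hypertonic effect in KO, 0 in WT, 0 in WT with Torin1 and 0 for the difference between the lines, the called listed genes in isotonic medium were 0, and the Sox11 response difference reversed to −0.78 (adjusted p = 0.872). The isotonic line differences moved with it to −3.85 for Pax8, −3.86 for Tfap2a, −3.35 for Sox11, 1.65 for Sox9 and −1.51 for Tfcp2l1. On that array Pax8 read 6.66 and Sox9 12.27, while no WT array read below 12.30 for Pax8 or above 10.89 for Sox9. By these readings the array was like the KO arrays, so this setting puts a KO-like array among the WT arrays. For the hypertonic effect in WT with Torin1, 2 factors were called with the 50th percentile filter, quantile normalization again, the replicate block, or without the arrays of number 4 (chosen after seeing the data), and 0 in a fit of only the groups compared. The replicate block changed no other call of a factor. Without the arrays of number 4, 86 listed genes were called in isotonic medium, and Sp7's hypertonic line difference was 0.32. With centred arrays, 134 listed genes were called in hypertonic medium, Sox11's hypertonic line difference was −3.99, and the share of all calls that were higher was 70.3% against 43.4% for the lines in hypertonic medium and 70.0% against 35.3% for the response difference. Quantile normalization made that share 59.1% against 49.1% for WT with Torin1. Leaving out 1 array in turn gave 3 to 3 called factors for the hypertonic effect in KO, 1 to 3 in WT, 0 to 2 in WT with Torin1, 2 to 4 for the difference between the lines, 0 to 0 for the other contrasts, and 51 to 72 listed genes in hypertonic and 45 to 58 in isotonic medium. The causes were not tested.

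Each genotype is 1 numbered line, a group has 3 arrays, and a single array decides several calls. Levels near the array median have no detection call, so the folds of Pax8, Tfap2a and Sox11 rest on a dim level in KO. The line and response differences of Sp7 rest on a WT level near the filter level.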

Other observations

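Among listed genes outside the factors' families, hypertonic medium changed several in KO cells, named here after their values were seen. Klf4, a factor of pluripotent and epithelial cells, rose by 1.74 ± 0.14 (limma adjusted p = 1.31e-06), Nr2f1, an orphan nuclear receptor, by 1.38 ± 0.12 (adjusted p = 2.2e-06), and Lpl, lipoprotein lipase, by 1.58 ± 0.13 (adjusted p = 1.62e-06). Snai2, a repressor of the neural crest and mesenchyme, fell by 0.90 ± 0.14 (adjusted p = 0.000223). The response differed between KO and WT by 1.29 ± 0.20 for Klf4, 1.05 ± 0.17 for Nr2f1, 1.52 ± 0.19 for Lpl and −1.13 ± 0.20 for Snai2, all called. Without isotonic KO array 1 the changes in KO cells were 1.72 for Klf4, 1.46 for Nr2f1, 1.69 for Lpl and −1.02 for Snai2, and the response differences 1.27, 1.13, 1.63 and −1.25, all still called. With that array counted as WT, the response differences of Klf4 (0.92, adjusted p = 0.28), Lpl (2.54, adjusted p = 0.173) and Snai2 (−1.04, adjusted p = 0.053) and the change of Lpl in KO cells (1.69, adjusted p = 0.138) were not called. In WT cells Mitf, the melanocyte factor, rose by 0.62 ± 0.14 (adjusted p = 0.0153, not called at 0.0662 when isotonic array 4 was left out and at 0.077 when hypertonic array 2 was), and in WT cells with Torin1 by 0.84 ± 0.14 (adjusted p = 0.00481). The change of Mitf in WT cells was 0.26 with the mean of probe sets (adjusted p = 0.104), and it was not called in a fit of only the groups compared (adjusted p = 0.111) or with isotonic KO array 1 as WT (adjusted p = 0.0608). With Torin1 it was not called in the fit of only the groups compared (adjusted p = 0.0584).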
